A study of Mus musculus with 12 samples.

Results

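Chga and Th are neuroendocrine genes, and both were followed here in the healing callus of the broken mouse femur. Chga (mouse gene ID 12652) encodes chromogranin A, the acidic protein that packs hormones into secretory granules. Th (gene ID 21823) encodes tyrosine hydroxylase, the rate-limiting enzyme of catecholamine synthesis. The members were all spots named Chga on both array types and Th on the hypoxia arrays, 2 of the 188 genes measured in the series. They were chosen by their measured densities, because Chga lay far above the control spots on both array types and differed between days, so those levels and day differences are a description without a test.

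The study asked how gene expression in fracture callus differs between mice labelled HET for HIF-1a, partly deficient in HIF-1alpha per the series title, and WT mice. Callus RNA was taken 7, 10 and 14 days after a fixed closed fracture of the femur. The groups were HET at days 7, 10 and 14 and WT at days 7, 10 and 14, and every animal had the same fracture. Each group was 1 pool of RNA from 3 animals in equal parts, measured on 1 membrane array for hypoxia genes and 1 for angiogenesis genes, 12 arrays in all. The altered allele, the strain, the age of the animals and whether both array types received the same pool are not named in the labels. With 1 array per group, no value below has a replicate.

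Chromogranin A is stored with hormones and transmitters in the granules of endocrine cells and sympathetic nerve endings, and it is cut into smaller peptides. One of them, vasostatin, acts on blood vessels, and others, such as catestatin, restrain catecholamine release. Tyrosine hydroxylase turns tyrosine into L-DOPA in sympathetic neurons and adrenal medulla, needs molecular oxygen for its reaction, and is a known hypoxia-responsive gene of the carotid body. Bone and periosteum carry sympathetic fibres, but the bodies of those neurons lie in ganglia outside the bone. In bulk RNA of this kind, fewer cells of a type and less RNA per cell cannot be told apart.

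The promoters of both genes are shown because they share a sequence feature that played no part in their choice. Both windows, from RefSeq on GRCm38.p6, run from 250 bases before to 50 bases after the annotated start, 5′ to 3′ on the strand of the gene. Chga lies at chr12:102554691-102554990 on the plus strand and Th at chr7:142899946-142900245 on the minus strand. Capitals mark matches to TGACGTNA, the cyclic AMP response element through which CREB acts, and, in Chga, to TATAAA.
Chga: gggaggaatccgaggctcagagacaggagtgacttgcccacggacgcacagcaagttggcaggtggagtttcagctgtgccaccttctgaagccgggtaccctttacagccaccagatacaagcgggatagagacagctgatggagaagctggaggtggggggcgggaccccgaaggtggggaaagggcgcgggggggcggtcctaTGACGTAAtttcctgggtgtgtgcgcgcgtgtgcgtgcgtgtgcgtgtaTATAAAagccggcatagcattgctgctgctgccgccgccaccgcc
Th: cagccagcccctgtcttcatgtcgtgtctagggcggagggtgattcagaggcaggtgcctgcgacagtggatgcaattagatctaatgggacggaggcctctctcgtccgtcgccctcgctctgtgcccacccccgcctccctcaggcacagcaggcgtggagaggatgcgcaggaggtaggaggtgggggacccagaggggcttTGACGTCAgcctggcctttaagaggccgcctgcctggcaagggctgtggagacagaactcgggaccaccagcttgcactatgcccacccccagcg

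The element stood 44 to 37 bases before the annotated start in Chga, as TGACGTAA, and 45 to 38 bases before it in Th, as the palindrome TGACGTCA. On either strand, TGACGTNA occurred in 2.93% of the 32851 mouse promoter windows of the same length and TGACGTCA in 1.79%. TATAAA, found in 13.6% of windows, began at base 6 after the annotated start of Chga and was not found in the Th window. The letters ACGTG, a form of the core of the sites that HIF binds, were searched on both strands and can overlap a cyclic AMP element. They occurred in 19.6% of windows and in neither of these. The other form of that core, GCGTG, was not counted over the windows, and it can be read in both sequences above. A match is a description of the letters only.

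Chga was bright on every array. On the hypoxia arrays its density, a linear measure of spot brightness, was 3699, 20635 and 47326 in HET at days 7, 10 and 14. In WT it was 2572, 12413 and 33629 at the same days. Later days were thus brighter than earlier ones in both genotypes, and at each day the HET spot was brighter than the WT spot. The HET spot at day 14 stood at the scanner's ceiling, taken as 90% of the highest density on any array (45701), so its true level may be higher.

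The angiogenesis arrays gave Chga a different course. In HET its density was 590, 28587 and 6674 at days 7, 10 and 14. In WT it was 2194, 42232 and 39641. Day 7 was again the dimmest day in both genotypes, but here HET was the dimmer genotype at each day, and the day 14 spot was close to the day 10 spot in WT and far below it in HET. In HET the Chga spot was thus brightest at day 14 on the hypoxia arrays and at day 10 on the angiogenesis arrays.

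All 12 Chga spots were brighter than every control spot of their array. The controls are 6 spots per array that hold PUC18 plasmid DNA or nothing, and a gene counts as above background when it exceeds the brightest of them. Chga on the hypoxia arrays was 9.46, 25.6 and 1597 times the brightest control spot in HET at days 7, 10 and 14, and 203, 125 and 262 times in WT. Its angiogenesis spots were at 1.89, 176 and 35.1 times that level in HET, and 9.10, 86.1 and 106 times in WT. The day 7 angiogenesis array of HET was thus the one on which Chga stood closest to background. All 12 spots also lay above the brightest control spot of any array of their type.

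**Figure D1:**
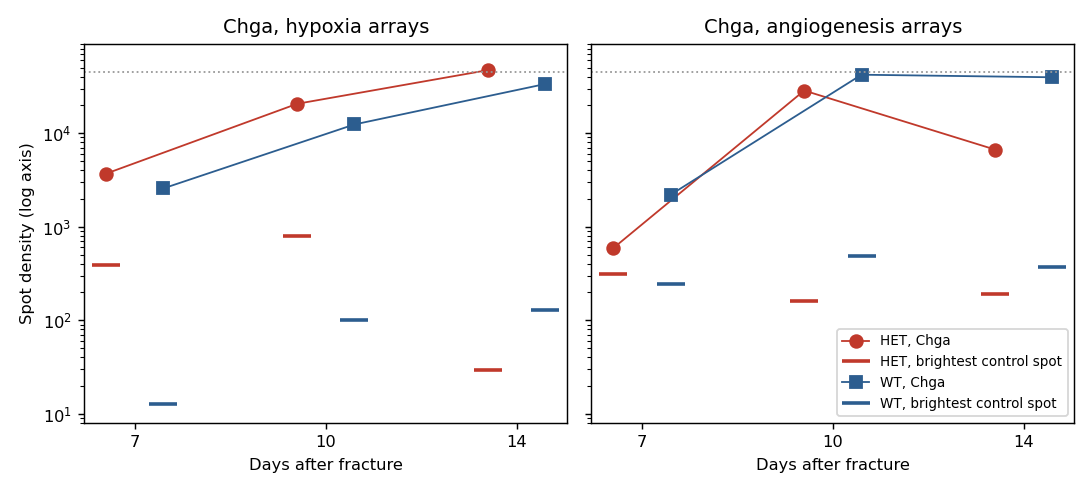
Density of the Chga spot (points, log axis) and of the brightest control spot (short bars) on each array by day after fracture, with HET left of WT at each day; the dotted line is the ceiling of 45701. On the hypoxia arrays HET lies above WT at every day, on the angiogenesis arrays below it.

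Th gave a far smaller signal, and on most arrays none above background. In HET its density was 256, 154 and 6.33 at days 7, 10 and 14, against brightest control spots of 391, 805 and 29.6. In WT it was 40.6, 0.333 and 126, against 12.7, 99.5 and 128.5. Th exceeded all 6 control spots on 1 of the 6 hypoxia arrays, WT at day 7, at 3.21 times the brightest of them. On that array the controls were the dimmest of any hypoxia array, and a density of 40.6 would not have exceeded the brightest control spot of 4 of the other 5.

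The remaining Th spots lay among or below the controls. In HET, 4, 6 and 6 of the 6 control spots were brighter than Th at days 7, 10 and 14. In WT at day 10, 5 were brighter. At day 14 in WT a single Blank spot of 128.5 exceeded the Th density of 126, while the other controls were at or below 73.9. The authors' deposited table, which gives a ratio to Actb and leaves dim spots empty, holds Th at 0.000914 in WT at day 7 and 0.00252 in WT at day 14 and is empty for it on the other 4 arrays. When the threshold was the mean of the array's controls plus 3 SD, the WT array at day 7 was again the 1 array that passed. With the brightest control spot of any hypoxia array (805) as the threshold, 0 passed.

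**Figure D2:**
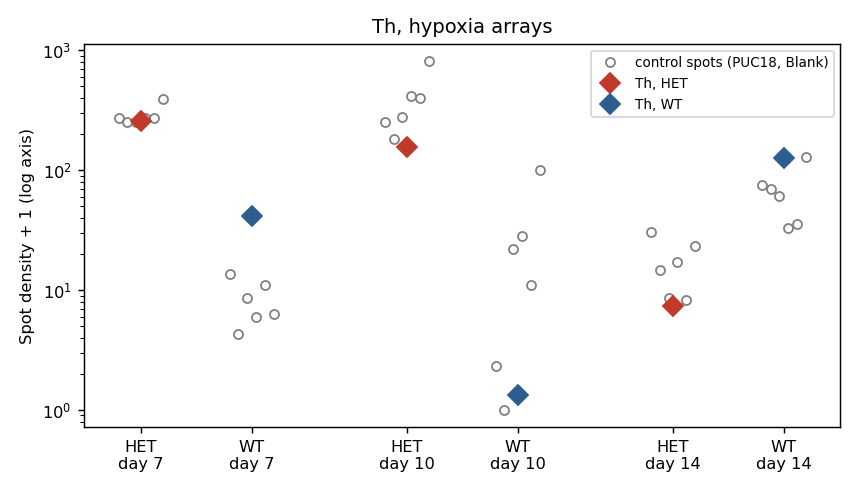
Density plus 1 (log axis) of the Th spot (diamonds) and of the 6 control spots (open circles) on each hypoxia array, with HET left of WT at each day. Th stands above all controls on the WT array of day 7 alone, at 40.6 against at most 12.7.

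Arrays differed widely in overall brightness, and the values above have to be read beside that. Median gene density ran from 3.83 to 926 on the hypoxia arrays and from 32.3 to 1435 on the angiogenesis arrays, and 20 to 56 and 9 to 91 of 100 genes per array were above background. The bone collagen gene Col1a1 (41175 to 49757) was above background on all 6 hypoxia arrays. The bone matrix gene Sparc (402 to 48388) was above background on all 6 angiogenesis arrays. The other listed bone matrix gene on those arrays, Spp1, was above background on 4 of the 6. At day 7 Spp1 lay below the brightest control spot in both genotypes. No cartilage or nerve marker of the lists was on either array type. Among the 4 genes of the neuroendocrine list on the hypoxia arrays, which are Chga, Th, Npy and Epas1, the neuropeptide gene Npy was above background on 1 hypoxia array, HET at day 14 (37.3 against a brightest control of 29.6). The axon growth gene Gap43, named after its values were seen, had densities of 262, 1964 and 44.6 in HET and 5.33, 921 and 18.6 in WT at days 7, 10 and 14, and was above background on 3 of the 6. The hypoxia-inducible factor gene Epas1 was above background on 0 arrays. The part of nerve tissue or of array brightness in the Chga signal was not tested.

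Between days, Chga moved with the brightness of its array in some groups and apart from it in others. Without normalization, the day 10 minus day 7 difference of Chga on the hypoxia arrays was 2.57 log2 units in HET and 2.26 in WT, against medians over all 100 genes of 3.60 and 1.68. Many of the 100 were below background, and over the 49 and 54 genes with a difference, those measured or bounded, the medians were 3.43 and 3.74, above Chga in both genotypes. From day 10 to day 14 Chga was 1.20 and 1.44 higher in HET and WT, while the medians over all 100 genes were -3.09 and -0.51 and those over genes with a difference -4.44 and -1.40. After quantile normalization these day 14 minus day 10 differences of Chga were 4.58 in HET and 4.75 in WT. Chga on these arrays was brighter at day 14 than at day 10 in both genotypes although the median gene was dimmer.

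For the angiogenesis arrays the unnormalized day 10 minus day 7 difference of Chga was 5.71 in HET and 4.25 in WT, against medians over all 100 genes of 1.76 and 4.20. In WT it was close to that median but above the 2.31 over the 74 genes with a difference, and the median over the 64 such genes in HET was 1.78. The WT array of day 7 had 9 genes above background. The day 14 minus day 10 difference was -2.09 in HET and -0.09 in WT, against medians over all 100 genes of -1.22 and -0.34. After quantile normalization it was -0.59 in HET and 0.41 in WT, so the sign in WT depended on the scaling. Chga was the 1 gene of 16 listed secreted inhibitors of vessel growth, a group that includes thrombospondins and tissue inhibitors of metalloproteinases, that was above background at day 7 in either genotype. At days 10 and 14, 15 and 8 of the 16 were above background in HET and 13 and 11 in WT. Over all 100 genes of these arrays the counts were 12, 91 and 44 in HET and 9, 76 and 79 in WT at days 7, 10 and 14, and Chga was selected for its level above the controls.

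**Figure D3:**
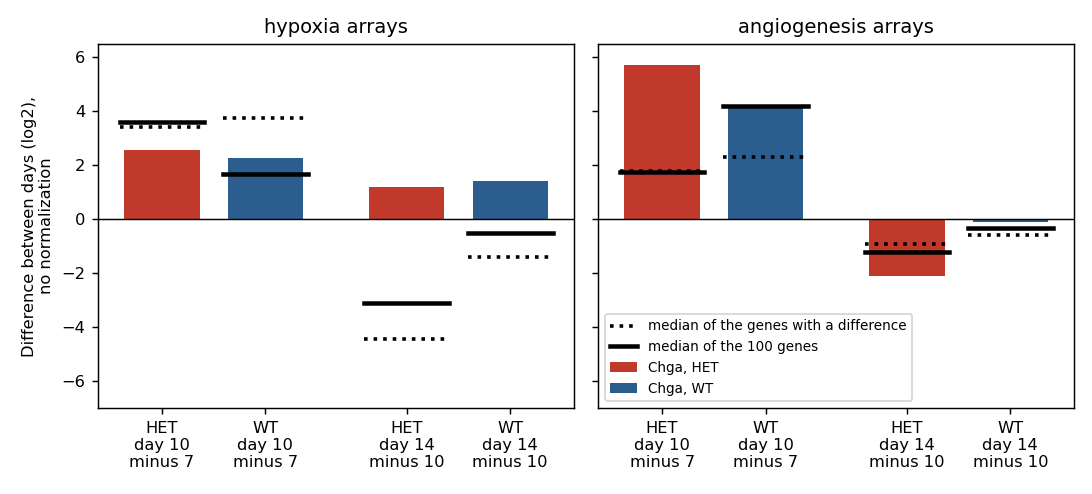
Difference of Chga between days (bars, log2 units without normalization) and the median difference of all 100 genes (solid lines) and of the genes with a difference (dotted lines) of the array type, with HET left of WT for each pair of days. On the hypoxia arrays Chga is higher at day 14 than at day 10 while both medians are lower; for WT on the angiogenesis arrays the day 10 minus day 7 bar ends near the solid line and above the dotted one.

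Quantile normalization, which gives all arrays of a type the same distribution of values, gave other day differences. It placed Th in WT at day 7, with a density of 40.6, at 10.47 log2 units, the same normalized value as Chga in WT at day 10, with a density of 12413. After it, the day 10 minus day 7 difference of Chga was -1.06 in HET and -3.16 in WT for hypoxia arrays. For angiogenesis arrays it was -0.74 in HET and -1.86 in WT. The day 14 minus day 7 difference was 3.52 in HET and 1.58 in WT on the hypoxia arrays, above 0 as in the densities, but -1.33 and -1.46 on the angiogenesis arrays, where the unnormalized differences were 3.61 and 4.16. The course of Chga from day 7 to day 10 therefore has no direction that holds under both scalings.

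The comparison of genotypes at each day was the one the study was designed for, and the choice of genes did not use it. On the hypoxia arrays the quantile-normalized HET minus WT difference of Chga came to -1.66, 0.45 and 0.28 log2 units at days 7, 10 and 14. Without normalization it was 0.42, 0.73 and 0.49. Day 7 thus turned from lower to higher in HET, and the other days were higher in HET under both. The quantile value at day 7 was the 1 of these 6 that reached 2-fold (1 log2 unit).

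That threshold was passed by many genes, so it sets Chga apart little. After quantile normalization 25.0% of genes with a difference lay at least 2-fold apart in either direction at day 7 on the hypoxia arrays, 27.1% at day 10 and 32.6% at day 14. Without normalization the shares were 44.4%, 62.8% and 50%. The median over all 100 genes without normalization was 0.34, 1.66 and -0.44 at days 7, 10 and 14, and that over genes with a difference was 0.33, 1.37 and -0.74. Chga at day 10, at 0.73, was therefore higher in HET by less than the median gene, and at day 14 it was higher while the median gene was lower. Repeated spots of reference genes within an array had a pooled SD of 0.44 log2 units, close to the unnormalized differences of Chga at days 7 and 14. That SD is for a single spot, and a difference between single spots, as for Chga at each day, has a larger one.

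On the angiogenesis arrays the quantile-normalized HET minus WT difference of Chga came to -1.46, -0.33 and -1.33 at days 7, 10 and 14. Without normalization it was -2.02, -0.56 and -2.56. HET was lower at each day under both scalings, and by at least 2-fold at days 7 and 14 under both. The shares of genes at least 2-fold apart were 28.6%, 20.8% and 21.7% after quantile normalization and 37.5%, 66.2% and 65.8% without it. At day 14 without normalization the median over all 100 genes was -2.04, and that over the 73 genes with a difference was -1.50. The array as a whole was thus dimmer in HET, and Chga turned to 0.32 when each array was centred on its median. At day 7 the median over all 100 genes was 1.17 and that over the 8 genes with a difference 0.54, both in the other direction from Chga. The day 7 arrays of HET and WT had 12 and 9 genes above background.

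**Figure D4:**
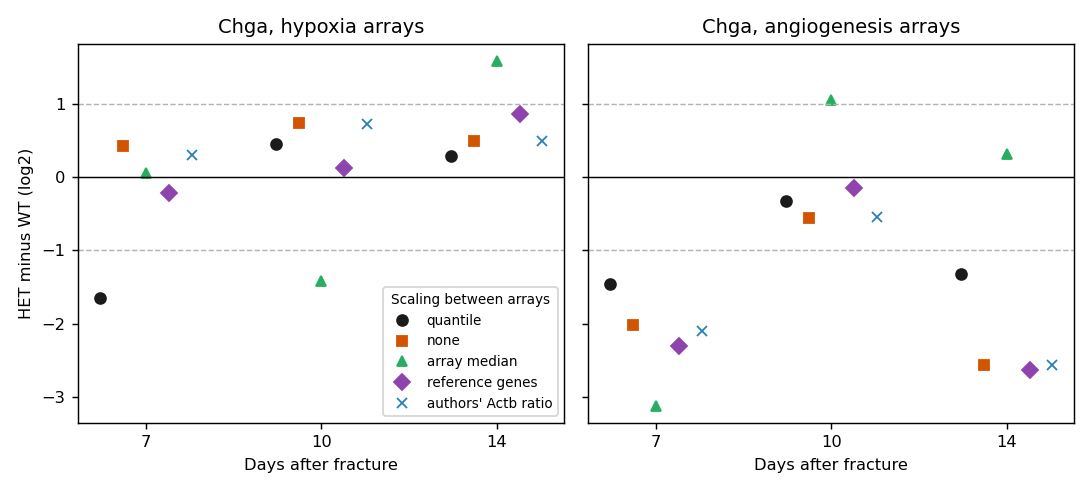
HET minus WT difference of Chga (log2 units) at each day under 5 scalings between arrays; dashed lines mark 2-fold. On the angiogenesis arrays all points lie below 0 except those for the array median at days 10 and 14, and on the hypoxia arrays the points lie on both sides of 0 at days 7 and 10 and above it at day 14.

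Over the 3 days, neither gene passed the test of genotype. The limma fit with day as a block takes the day-to-day variation of the genotype difference as its error and leaves 2 residual degrees of freedom per gene. On the hypoxia arrays Chga differed by -0.31 log2 units, HET minus WT, with a standard error of 0.57 and a 95% confidence interval from -2.05 to 1.44 (limma, adjusted p = 0.94). Of 73 genes tested there, 0 passed (0%), with 3 at an unadjusted p under 0.05. Chga on the angiogenesis arrays differed by -1.04 with a standard error of 0.50 and an interval from -2.31 to 0.23, lower in HET at 3 of 3 days (limma, adjusted p = 0.87). Of 96 genes, 0 passed (0%), with 2 at an unadjusted p under 0.05.

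The result for the angiogenesis arrays depended on which genes entered the fit. Among the 9 genes above background on all 6 angiogenesis arrays, Chga had the same difference of -1.04, a standard error of 0.27 and an adjusted p of 0.012 (limma). Of these, 2 of 9 genes passed (22.2%), Chga, lower in HET, and Sparc, higher in HET. In that fit all 9 genes share 1 estimate of the spread. They include the reference genes Actb, Gapdh, Ppia and Rpl13a. Of these, Actb lay above the ceiling of 45701 on all 6 arrays (48666 to 50480). Standing above the control spots is also what Chga was chosen for, so its passing in this fit is not read as support. Chga passed in none of the other 10 fits run on these arrays. For Th on the hypoxia arrays the fit gave -2.03 with a standard error of 1.23 and an interval from -5.80 to 1.74 (limma, adjusted p = 0.75). It rests on values below background on 5 of the 6 arrays. At day 7 alone the difference of Th has a bound, with HET lower by at least 0.69 log2 units after quantile normalization. Without normalization there is no bound, and the density itself was 256 in HET and 40.6 in WT.

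Chga is 1 of 12 genes present on both array types, which allows its genotype difference to be set side by side. Without normalization the mean HET minus WT difference over the 3 days was 0.55 ± 0.16 on hypoxia membranes and -1.72 ± 1.03 on angiogenesis membranes (SD, n = 3 days). The array types differed by 2.26 log2 units. They share days and genotypes, and an exact two-sided permutation test that swaps them within each day, run after the opposite signs were seen, gave p = 0.25, the smallest that 3 days allow. After quantile normalization they differed by 0.73 with an exact permutation p of 0.5. The sign of the unnormalized difference was the same on both array types at 0 of 3 days for Chga and at 1 to 3 days for each of the other 11 shared genes. Among those 11, Id1, Egfr, Plau, Vegfa and Tgfb1 were above background on 1, 3, 4, 5 and 6 of the 12 arrays. Many of their signs thus rest on background values. After quantile normalization the sign was the same at 1 day for Chga and at 0 days for Actb, Gapdh, Id1 and Ppia, so Chga did not stand apart there. Over the 6 combinations of genotype and day, Chga on one array type correlated with Chga on the other at r = 0.70 without normalization and r = 0.01 after it, points that share animals' days and the brightness of their arrays.

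Hif1a, the gene altered in these mice, was above background on all arrays. Its density on the hypoxia arrays was 5509, 18939 and 4766 in HET at days 7, 10 and 14 and 137, 30822 and 15394 in WT. Its angiogenesis spot had 25140, 6924 and 6574 in HET and 8037, 11450 and 11008 in WT. The day 7 arrays labelled HET were the brighter ones for Hif1a on both array types. Their label could not be checked from this signal, because the labels and files do not say where in Hif1a the probe lies.

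The genes whose pattern was most like that of Chga were found by Pearson's r over the 6 arrays of a type, on normalized values, among genes above background on at least 4 of them. With 28 candidates on the hypoxia arrays, these were the collagen-modifying enzyme gene Plod3 (r = 0.87), the ribosomal protein gene Rpl13a (0.82) and the matrix growth factor gene Ctgf (0.80). The density of Plod3 was 265, 1298 and 1741 in HET and 6.99, 657 and 1017 in WT at days 7, 10 and 14, highest at day 14 in both genotypes, as for Chga. At day 7 Plod3 lay below the brightest control spot in both genotypes (391 in HET and 12.7 in WT), so its likeness rests in part on background values. Ctgf was near or above the ceiling on all 6 arrays (39710 to 49310), so its likeness rests on small differences. Rpl13a in WT at day 7 was level with the brightest control spot (12.7). In HET Rpl13a fell from 10190 at day 10 to 2982 at day 14, where Chga rose. With each array centred on its median, Plod3 (0.87) and Ctgf (0.62) were again among the first 3. The mitochondrial carrier gene Ucp2 (0.73) stood between them. At day 7 Ucp2 too lay below the brightest control spot in both genotypes (256 in HET and 0 in WT).

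The angiogenesis arrays had 40 candidates. The most alike after quantile normalization were Hif1a (r = 0.71), the metalloproteinase inhibitor gene Timp1 (0.69) and the reference gene Ppia (0.64). Under that scaling Chga itself was lower at day 10 than at day 7 in both genotypes. In the densities Ppia was brightest at day 7 (49236 in HET and 47033 in WT), where Chga was dimmest. Hif1a too was brightest at day 7 in HET (25140), whereas in WT it was dimmest then (8037). After median centring Hif1a, Timp1 and Ppia were no longer among the first 3. The first 3 were then the scavenger receptor gene Cd36 (0.67), the VEGF receptor gene Flt1 (0.66) and the growth factor gene Tgfb3 (0.66). At day 7 Timp1, Cd36, Flt1 and Tgfb3 lay below the brightest control spot in both genotypes, so their likeness too rests in part on background values. Among the 16 listed inhibitors of vessel growth, 14 had a difference at day 10. After quantile normalization 6 of these 14 were at least 2-fold lower in HET and 1 was higher, with a median of -0.58. Over the 77 genes of the array with a difference the median was -0.08, and 10 were lower and 6 higher by that much. Chga, at -0.33, was not among the 6 lower inhibitors. At day 14, 2 of 8 inhibitors were at least 2-fold lower in HET, Chga among them, and 1 was higher. The list median was 0.11 against 0.14 over 46 genes. The list was counted after quantile normalization alone. Without normalization, 45 of 71 genes of the array were at least 2-fold lower in HET at day 10 and 2 were higher. With median scaling, 4 of 79 were lower by that much and 19 higher.

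Th was above background on too few arrays to be given like genes. It was viewed within the list of oxygen-regulated genes of the hypoxia arrays instead. The 12 listed include Th itself, the erythropoietin gene Epo, the angiogenic factor gene Vegfa and the haem-degrading enzyme gene Hmox1. In HET 0, 4 and 6 of the 12 were above background at days 7, 10 and 14, and in WT 3, 3 and 5. Over all 100 genes the counts were 20, 53 and 46 in HET and 27, 56 and 42 in WT. The 3 in WT at day 7 were Th at 40.6, the hexokinase gene Hk2 at 20.6 and the transcriptional repressor gene Bhlhb2 at 19.6, all against a brightest control of 12.7. At that day their HET densities were 256, 256 and 267, all below the brightest HET control of 391. Th was thus one of several dim genes above background on the array with the dimmest controls, and the part of that array's low background in the call was not tested.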

How the data were processed

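Total RNA of fracture callus, pooled from 3 animals per group and labelled with biotin, was hybridised to focused membrane arrays, per the labels' protocols. The authors deposited 1 scanner file per array, which holds the linear intensity (density) of 112 spots per the file headers, without a local background. No label or header names the imaging software. The authors' deposited series matrix holds a ratio, found here to equal a spot's density over that of Actb, both after subtracting the array's minimum. It served as an alternative. One sample had a second file, equal in every spot to another array's, which was left out.

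Densities were background-corrected with limma's normexp (limma 3.58.1, R 4.3.3, offset 25.9, set at 10% of the median density), taken to log2, averaged per gene and quantile normalized over the 6 arrays of a type, without control spots. Where only 1 array of a pair detected a gene, a bound was set from the lowest detected gene of its partner. The genotype fit used lmFit and eBayes, day being the block, two-sided, with Benjamini-Hochberg adjustment over genes above background on at least 1 array and a threshold of 0.05. It was tested on simulated data. These gave every gene the same spread and set no ceiling or floor, so that test does not carry over to the real arrays. The members, lists and tests were chosen with earlier results of these data known. Named genes were the members, the 3 most alike by Pearson's r on each array type, the reference genes, Hif1a and members of the lists (neuroendocrine, inhibitors of vessel growth, oxygen-regulated, vasoactive, and markers of bone, cartilage, macrophages, endothelium, nerve and adipocytes). The comparison of genotype differences between array types was added after the values were seen. Precision is limited by the number of arrays.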

Additional observations from a re-analysis of the deposited data

Results flagged for a closer look

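Without normalization, the HET minus WT difference of Chga was above 0 at all 3 days on the hypoxia arrays and below 0 at all 3 days on the angiogenesis arrays, a gap of 2.26 log2 units between the array types. The exact permutation p, swapping array types within days, was 0.25, the smallest possible with 3 days, so this test cannot pass 0.05. The gap was 1.95 with scaling to reference genes, 0.73 after quantile normalization and 0.65 after median centring.

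A second file of the HET day 7 angiogenesis sample, not used in any comparison, gives Chga a density of 2194. Every spot in it equals that of the WT day 7 array, and its header names that array.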

How the results depend on the processing

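Values are log2 differences of Chga unless said otherwise, each with 1 choice altered from the quantile-normalized value; the cause of each shift was not tested. HET minus WT on the hypoxia arrays turned at day 7 to 0.42 without normalization, 0.048 with median scaling and 0.30 with the authors' ratio, and was -0.22 with reference gene scaling. With median scaling it was -1.42 at day 10 and 1.58 at day 14, and with reference gene scaling 0.86 at day 14. For angiogenesis arrays it was -2.02 (no normalization), -3.12 (median), -2.31 (reference genes) and -2.10 (ratio) at day 7, 1.05 (median) at day 10, and -2.56, 0.32, -2.64 and -2.57 in the same order at day 14. Day 14 minus day 7 was 2.98 in HET with reference gene scaling and 3.70 (none) and 3.55 (ratio) in WT on the hypoxia arrays. Angiogenesis arrays gave 3.61, 3.32, 3.69 and 3.68 in HET and 4.16, -0.12, 4.02 and 4.15 in WT, in that order. Day 10 minus day 7 turned to 2.57, 0.84 and 2.54 in HET and 2.26, 0.50 and 2.12 in WT on the hypoxia arrays, and to 5.71, 6.96 and 5.83 in HET and 4.25, 4.81 and 4.27 in WT on the angiogenesis arrays (none, reference genes, ratio). For HET on the angiogenesis arrays it was also 3.73 with median scaling. Actb, the denominator of the authors' ratio, stood at 44428 to 50480 on the 12 arrays, near or above the ceiling of 45701. That ratio therefore stays close to the unnormalized density and is no separate check on it. Gapdh and Ppia, used in reference gene scaling, were also above the ceiling on both day 10 hypoxia arrays. For Th in WT, day 14 minus day 7 was a bound of -3.29 after quantile normalization and turned to 1.46 by the authors' ratio, although the day 14 spot was not above background. The limma genotype difference over days on the hypoxia arrays turned to 0.37 without day 7 (adjusted p = 0.88), 0.55 without normalization (0.70), 0.069 with median scaling (0.97) and 0.25 with reference gene scaling (0.92). For angiogenesis arrays it was -1.04 with the 9 genes above background on all arrays (adjusted p = 0.012), and between -0.58 and -1.72 in the other fits. Th was above background on 0 arrays with the brightest control spot of any hypoxia array as threshold. Offset and background correction turned no sign among the Chga results. The limma fit pairs HET with WT by day; the labels give no replicate numbers. Signal over background limits Th on 5 of 6 arrays, and the ceiling limits Chga in HET at day 14 on the hypoxia array.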

Other observations

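The endothelial list had 7 genes on the angiogenesis arrays, of which 0, 7 and 3 were above background in HET at days 7, 10 and 14 and 0, 5 and 5 in WT. Over all 100 genes of these arrays the counts were 12, 91 and 44 in HET and 9, 76 and 79 in WT. The vascular receptor gene Tek had densities of 156, 3123 and 3193 in HET and 33.0, 10956 and 7666 in WT. In HET the other endothelial genes, Pecam1, Cdh5, Tie1, Kdr, Flt1 and Eng, were dimmer at day 14 than at day 10. Among them Cdh5 went from 1781 to 131 and Flt1 from 48633 to 42065. The macrophage scavenger receptor gene Msr1 stood at 119, 33880 and 11617 in HET and at 16, 36155 and 5529 in WT, brightest at day 10 in both genotypes.

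Among the vasoactive secretory genes, the endothelin-converting enzyme gene Ece1 was the 1 above background on all 6 hypoxia arrays, with densities of 556, 9939 and 432 in HET and 80.2, 7243 and 341 in WT. It was brightest at day 10, whereas Chga was brightest at day 14 on the same arrays. The fatty acid binding protein gene Fabp4, a marker of adipocytes, also peaked at day 10, with 1393, 43925 and 388 in HET and 1217, 44652 and 816 in WT. The vasodilator peptide gene Adm was above background on 0 of the 6.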
